A study of Mus musculus with 16 samples.

Results

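The comparison described here sets the mouse embryonic fibroblast (MEF) line Cl_2 against the line Ctrl_1 across every tRNA in the deposited MEF count table. Its libraries were taken by their sample titles: 2 Cl_2 and 2 Ctrl_1 libraries of 16 in the series. Of the 16, 8 are MEFs and the rest mouse hearts, which were not used. The comparison was chosen with earlier results of these data known. The series is about a mutation of the mitochondrial tRNA-Ala gene and its correction with a base editor. The titles give no genotype, treatment, age or strain for Ctrl_1 or for the lines Cl_1, Cl_2 and Cl_3, and do not explain Ctrl or Cl, so no group is called mutant, edited or wild type. Each line was represented by 2 cell passages, so 1 line stands behind each group and every p-value below measures the spread between passages of a line, not between independent lines. The table lists tRNAs only, and the fibroblast label could therefore not be checked against marker genes. tRNA abundance was read by mim-tRNAseq, which copies tRNAs from their 3' end into full cDNAs and counts them by sequence, from total RNA that had been oxidised and beta-eliminated.

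The table held 819 rows: 22 mitochondrial tRNAs, 265 nuclear tRNAs and 532 rows named tRX, a prefix for predicted genes outside the high-confidence tRNA set. Of these, 201 passed the filter on low counts, namely all 22 mitochondrial, 175 nuclear and 4 tRX rows. Cl_2 had 3040633 and 1473330 counts and Ctrl_1 had 3275140 and 4375975, so that the second Cl_2 library was the shallowest of the 8 MEF libraries. The median absolute log2 difference between passages was 0.12 in Cl_2 and 0.11 in Ctrl_1. Levels are CPM, counts scaled to a common library size, after adjustment by edgeR's TMM method and were not divided by length. Changes are Cl_2 minus Ctrl_1 on the log2 scale, and a transcript is said to rise or fall where its Benjamini-Hochberg adjusted p was under 0.05. In bulk samples, fewer cells that make a tRNA and less of it per cell cannot be told apart.

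A tRNA carries 1 amino acid and reads codons through its anticodon. In the nucleus most anticodons are served by several genes whose transcripts differ elsewhere in the molecule. Such transcripts, called isodecoders, are numbered after the anticodon, so that tRNA-Lys-TTT-1 and tRNA-Lys-TTT-2 both read lysine codons. Mitochondria have their own small set, encoded on both strands of mitochondrial DNA and cut out of long transcripts; it serves only the mitochondrial ribosome, which makes subunits of the respiratory chain. mt-tRNA-Ala lies on the strand that also carries the tRNAs for Asn, Cys, Gln, Glu, Pro, Tyr and, with anticodon TGA, Ser. In the RefSeq gene order its neighbours are mt-tRNA-Trp, on the other strand, and mt-tRNA-Asn. No tRNA sequences are printed, because none were found in the sources used here.

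Between Cl_2 and Ctrl_1, 93 of 201 transcripts changed (46.3%), 52 upwards (25.9%) and 41 downwards (20.4%). The 52 risers were all nuclear. The fallers comprised 30 nuclear and 11 mitochondrial tRNAs, and 0 of the 4 tRX rows passed. The median change was 0.02 over all 201 transcripts, 0.07 over the nuclear and -0.62 over the mitochondrial tRNAs. The libraries of the lines did not overlap in 150 of 201 transcripts (74.6%). Of the 93 calls, 41 (26 higher, 15 lower) held whichever of the 4 libraries was left out. Without the first Ctrl_1 library 54 transcripts passed and without the first Cl_2 library 53, of which 37 were higher. Scaling by library totals shifted the median of all transcripts by 0.10 and turned the split to 54 higher and 25 lower (68.4% of calls higher, against 55.9%), and scaling by nuclear tRNA totals gave 54 higher and 27 lower.

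**Figure D1:**
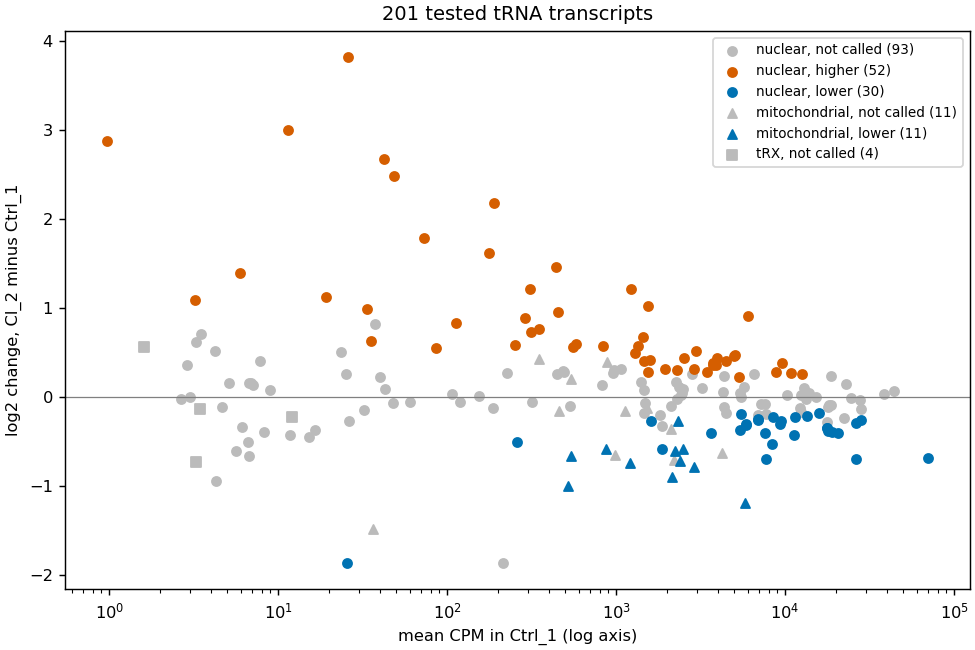
Each point is 1 of the 201 tested transcripts, with its mean CPM over the 2 Ctrl_1 libraries on a log axis and its log2 change, Cl_2 minus Ctrl_1; circles are nuclear, triangles mitochondrial and squares tRX, coloured by the edgeR call. The risers include transcripts at low levels in Ctrl_1 with changes up to 3.82, while the fallers among abundant nuclear transcripts lie between 0 and -1.

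mt-tRNA-Ala, the tRNA encoded by the gene the series is about, stood at 588 and 456 CPM in Ctrl_1 and 234 and 287 CPM in Cl_2. Both Cl_2 libraries lay below both Ctrl_1 libraries. The change was -1.0 on the log2 scale (edgeR adjusted p = 0.00819, SE 0.21), a level 2.0-fold lower in Cl_2. As a share of mitochondrial tRNA counts, which does not depend on the nuclear tRNAs, it was 1.47% (95% Wilson interval 1.40% to 1.54%) and 1.29% (1.23% to 1.35%) in Ctrl_1. In Cl_2 it was 0.975% (0.906% to 1.05%) and 1.10% (1.0% to 1.21%), and these intervals cover counting error only. The shares of the lines did not overlap, but with 2 libraries against 2 an exact two-sided permutation test cannot go below 0.333. When mitochondrial totals without Ala were used for scaling, the change was -0.42 with an edgeR adjusted p of 0.0613. It was -0.84 with an edgeR adjusted p of 0.0578 without the first Cl_2 library, and with each of the other 3 libraries left out it passed.

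All 14 mitochondrial tRNAs of the strand opposite to mt-tRNA-Ala were lower in Cl_2 in their estimate, with a median of -0.69, and 9 of them fell, where 20.4% of all transcripts did. In 13 of the 14 the libraries of the lines did not overlap, beside 74.6% of all transcripts. mt-tRNA-Phe, whose gene comes first in the RefSeq order of mitochondrial genes, was at 6107 and 5391 CPM in Ctrl_1 and 2477 and 2532 CPM in Cl_2. It fell by 1.20 on the log2 scale (edgeR adjusted p = 0.000472, SE 0.12), the lowest estimate of any called mitochondrial tRNA. Its share of mitochondrial tRNA counts was 15.3% and 15.2% in Ctrl_1 and 10.3% and 9.69% in Cl_2, groups that lie far apart next to the difference between passages. The lower share was not particular to Cl_2, with 10.8% and 9.95% in Cl_1 and 8.52% and 9.02% in Cl_3.

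mt-tRNA-Met, which serves both initiation and elongation in mitochondria, was at 2243 and 2019 CPM in Ctrl_1 and 1248 and 1027 CPM in Cl_2, a change of -0.90 on the log2 scale (edgeR adjusted p = 0.00456, SE 0.16). mt-tRNA-Trp, the neighbour of mt-tRNA-Ala, was at 3289 and 2486 CPM in Ctrl_1 and 1786 and 1555 CPM in Cl_2, a change of -0.79 on the log2 scale (edgeR adjusted p = 0.018, SE 0.21). In both, the lower Ctrl_1 library exceeded the higher Cl_2 library. The other 6 that fell were mt-tRNA-Leu-TAG (-0.74), mt-tRNA-Ile (-0.72), mt-tRNA-Arg (-0.67), mt-tRNA-Leu-TAA (-0.62), mt-tRNA-Thr (-0.59) and mt-tRNA-His (-0.59), each a log2 change. The 5 of this strand that did not pass were mt-tRNA-Ser-GCT, at 36.4 CPM on average in Ctrl_1, with a log2 change of -1.49 (SE 0.79), mt-tRNA-Asp (-0.71), mt-tRNA-Gly (-0.66), mt-tRNA-Val (-0.63) and mt-tRNA-Lys (-0.36). mt-tRNA-Lys was at 2755 and 1458 CPM in Ctrl_1 and 1649.7 and 1626 CPM in Cl_2, so its Cl_2 libraries lay between those of Ctrl_1.

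On the strand of mt-tRNA-Ala, the median change of the other 7 tRNAs was -0.13, and 1 of them, mt-tRNA-Tyr, fell. mt-tRNA-Tyr was at 2363 and 2257 CPM in Ctrl_1 and 1857 and 1959.6 CPM in Cl_2, a change of -0.28 on the log2 scale (edgeR adjusted p = 0.0475, SE 0.09) that turned to 0.31 when scaled to mitochondrial totals. mt-tRNA-Asn, the neighbour on the same strand, was at 323 and 373 CPM in Ctrl_1 and 409 and 527 CPM in Cl_2. Both Cl_2 libraries of mt-tRNA-Asn lay above both of Ctrl_1, but its change of 0.42 on the log2 scale (edgeR adjusted p = 0.317, SE 0.31) did not pass. The remaining 5 gave log2 changes of 0.39 for mt-tRNA-Glu, 0.20 for mt-tRNA-Gln, -0.13 for mt-tRNA-Ser-TGA, -0.16 for mt-tRNA-Pro and -0.17 for mt-tRNA-Cys, with edgeR adjusted p of 0.375, 0.57, 0.415, 0.697 and 0.609. In Cl_2 all 8 tRNAs of this strand, mt-tRNA-Ala included, were higher in the second passage than in the first, by a median of 0.38 on the log2 scale, against 9 of 14 and 0.09 on the other strand. In Ctrl_1 the second passage was higher in 5 of 8 and in 1 of 14.

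The gap between the strand medians was 0.56, and 0.54 to 0.71 with a library left out. A change of library scaling shifts both medians alike and so cannot move this gap, but it changed which tRNAs passed. Scaled to mitochondrial totals, 5 of the 7 tRNAs beside mt-tRNA-Ala on its strand were higher (Asn, Cys, Gln, Glu and Ser-TGA), and of the other strand only mt-tRNA-Phe was lower, at -0.61. This scaling moved the median of all transcripts to 0.60 and made 97.2% of all calls higher, so the 5 are not read as a rise particular to these tRNAs. The strand medians were then 0.45 and -0.11. The 7 tRNAs together held 17.1% and 21.4% of mitochondrial counts in Ctrl_1 and 25.8% and 29.7% in Cl_2. They held 28.0% and 27.7% in Cl_1 and 32.4% and 32.1% in Cl_3, so this shift from Ctrl_1 was not particular to Cl_2. All mitochondrial tRNAs together held 3.74% and 3.41% of counts in Ctrl_1 and 2.42% and 2.70% in Cl_2, beside 2.14% and 3.01% in Cl_1 and 2.39% and 2.61% in Cl_3. With library totals 7 of the 22 passed, all lower. Of the 11 calls, 4 (Phe, Met, His and Leu-TAA) held in each fit that left out a library. Without the first Cl_2 library 4 passed, and 6 without the second Cl_2 or the first Ctrl_1 library.

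**Figure D2:**
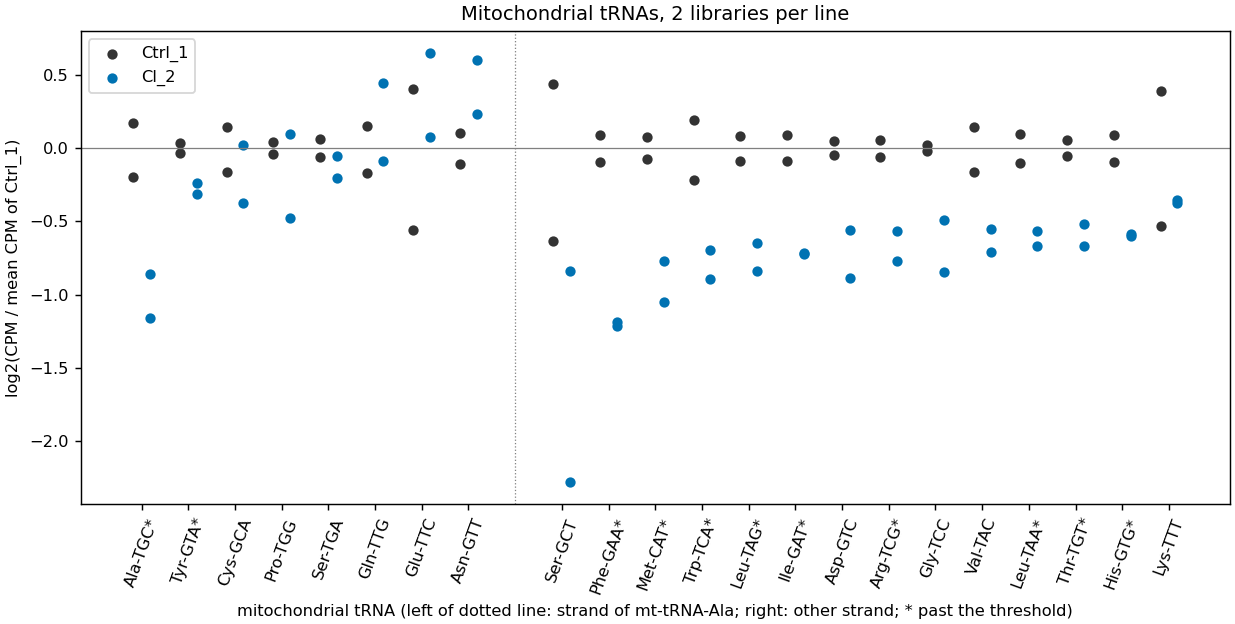
Points are libraries, with log2 of CPM over the Ctrl_1 mean CPM for each of the 22 mitochondrial tRNAs, ordered by change within the strand of mt-tRNA-Ala (left) and the other strand (right); asterisks mark the 11 that passed. On the right all tRNAs but Lys have both Cl_2 points below both Ctrl_1 points, and on the left the lines overlap in all but Ala, Tyr and Asn.

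Among the 175 nuclear transcripts tested, 52 rose and 30 fell. The risers were mostly minor members of their anticodon. Their median level in Ctrl_1 was 1256 CPM and their median share of their anticodon's counts 5.50%, against 8889 CPM and 48.0% for the fallers. The 93 uncalled nuclear transcripts had medians of 1410 CPM and 7.08%, near those of the risers, so the fallers were the group that stood apart. In mim-tRNAseq reads start at the 3' end of a tRNA, so these levels are not proportional to length. Of the risers 15 changed by over 2-fold, and of the fallers 1. The 52 risers held 11.4% of nuclear counts in Ctrl_1 and 16.4% in Cl_2, and the 30 fallers 38.4% and 30.7%. These shares describe transcripts chosen by the same test and are no further evidence of it.

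The largest rises were in transcripts that were rare in Ctrl_1. tRNA-Asn-GTT-1, an isodecoder for asparagine, was at 27.8 and 24.0 CPM in Ctrl_1 and 329 and 402 CPM in Cl_2. Its change was 3.82 on the log2 scale (edgeR adjusted p = 0.000107, SE 0.26), or 14.1-fold. The dominant asparagine isodecoder tRNA-Asn-GTT-3 was at 38273 and 38419.5 CPM in Ctrl_1 and 39282 and 38774 CPM in Cl_2 and did not pass (0.03, edgeR adjusted p = 0.785). The rare isodecoder thus rose within its anticodon (0.0723% and 0.0622% in Ctrl_1, 0.828% and 1.02% in Cl_2). tRNA-His-GTG-3, for histidine, was at 48.4 and 48.9 CPM in Ctrl_1 and 262 and 279 CPM in Cl_2, a change of 2.48 on the log2 scale (edgeR adjusted p = 0.000134, SE 0.19). tRNA-Arg-TCT-4, for arginine, was at 9.48 and 13.5 CPM in Ctrl_1 and 76.1 and 112 CPM in Cl_2, a change of 3.0 on the log2 scale (edgeR adjusted p = 0.000472, SE 0.31). In each of these transcripts the lower Cl_2 library was several times the higher Ctrl_1 library.

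tRNA-Gly-CCC-2, for glycine, was at 189 and 190.4 CPM in Ctrl_1 and 798 and 919.9 CPM in Cl_2, a change of 2.18 on the log2 scale (edgeR adjusted p = 0.00031, SE 0.20). tRNA-Gly-CCC-3 was at 433 and 443 CPM in Ctrl_1 and 1125 and 1272 CPM in Cl_2, a change of 1.45 on the log2 scale (edgeR adjusted p = 0.000477, SE 0.16). Both rose while the main glycine isodecoder of this anticodon, tRNA-Gly-CCC-1, fell (-0.35, edgeR adjusted p = 0.00592). tRNA-Cys-GCA-4, for cysteine, was at 74.5 and 71.9 CPM in Ctrl_1 and 257 and 246 CPM in Cl_2, a change of 1.78 on the log2 scale (edgeR adjusted p = 0.000188, SE 0.15). tRNA-Arg-CCG-3, already abundant in Ctrl_1, was at 6145 and 5863 CPM in Ctrl_1 and 12356 and 10097 CPM in Cl_2, a change of 0.90 on the log2 scale (edgeR adjusted p = 0.000472, SE 0.10). The level of tRNA-Ala-TGC-5 in Ctrl_1 was close to the limit of detection, 0.981 and 0.950 CPM, and 8.17 and 5.92 CPM in Cl_2, a change of 2.87 on the log2 scale (edgeR adjusted p = 0.00107, SE 0.36). In Ctrl_1 it lay below the level that the filter on low counts asks for. It was tested only because of libraries in which it was higher, those of Cl_2 among them, so its p is no independent support for a rise.

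Most falls were smaller and lay in more abundant transcripts, with 2 of the 30 below the risers' median level in Ctrl_1. tRNA-Lys-TTT-1, for lysine and the most abundant tRNA of Ctrl_1, was at 73250.1 and 67705 CPM in Ctrl_1 and 44899 and 42704 CPM in Cl_2. Its change was -0.69 on the log2 scale (edgeR adjusted p = 0.00119, SE 0.09), with both Cl_2 libraries far below both of Ctrl_1. tRNA-His-GTG-2, which made up nearly all nuclear histidine tRNA, was at 26679 and 25804 CPM in Ctrl_1 and 16919.8 and 15267 CPM in Cl_2, a change of -0.71 on the log2 scale (edgeR adjusted p = 0.000472, SE 0.07). tRNA-Ser-GCT-2, for serine, was at 7746 and 7581 CPM in Ctrl_1 and 5040.0 and 4420.2 CPM in Cl_2, a change of -0.70 on the log2 scale (edgeR adjusted p = 0.00132, SE 0.09). Other falls, as log2 changes, were tRNA-Gly-GCC-1 (-0.58), tRNA-Glu-TTC-2 (-0.43), tRNA-Pro-AGG-1 (-0.41), tRNA-Leu-TAA-2 (-0.41) and tRNA-Val-TAC-1 (-0.39) among those named by the rule. tRNA-Gly-GCC-1 was a minor member of its anticodon (6.47% and 7.18% in Ctrl_1). The 2 fallers below the risers' median were tRNA-Leu-TAG-2, named here after its values were seen, at 257 CPM on average in Ctrl_1 (-0.51, a call kept in 1 of the 4 fits that left out a library), and tRNA-Gln-CTG-4. tRNA-Gln-CTG-4, a rare glutamine isodecoder, was at 24.8 and 26.4 CPM in Ctrl_1 and 6.86 and 7.23 CPM in Cl_2, a change of -1.87 on the log2 scale (edgeR adjusted p = 0.000472, SE 0.20). Of the 5 nuclear transcripts with the most counts, tRNA-Lys-TTT-1 alone passed, and tRNA-Ile-AAT-1 (0.06), tRNA-Asn-GTT-3 (0.03), tRNA-Gln-CTG-2 (-0.04) and tRNA-Lys-CTT-3 (-0.14) lay between -0.14 and 0.06.

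By amino acid, against 25.9% of all transcripts higher and 20.4% lower, the cysteine tRNAs gave 6 higher and 0 lower of 12 tested, with a median change of 0.53. The 6 were minor members, none above 7.14% of Cys-GCA counts in a Ctrl_1 library. The main ones, tRNA-Cys-GCA-3 (-0.00424) and tRNA-Cys-GCA-7 (-0.02), did not pass. The tryptophan tRNAs gave 3 higher and 0 lower of 4 (median 0.37), here including the main one, tRNA-Trp-CCA-3/4, at 9849.6 and 9410.2 CPM in Ctrl_1 and 12194 and 12854 CPM in Cl_2 (0.38, edgeR adjusted p = 0.0119). Arginine tRNAs gave 8 higher and 3 lower of 19 (median 0.25), threonine 5 and 2 of 12 (0.12), and leucine 4 and 6 of 15 (-0.18). The nuclear alanine tRNAs, which share the amino acid of mt-tRNA-Ala but serve the cytosol, gave 7 higher and 4 lower of 19 (median 0.15). None of the 4 initiator methionine tRNAs passed. In all 4 both Cl_2 libraries lay below both of Ctrl_1, and 74.6% of all transcripts did not overlap in one direction or the other. The main one, tRNA-iMet-CAT-1, which starts cytosolic proteins, was at 18576 and 17298 CPM in Ctrl_1 and 16759.7 and 16216 CPM in Cl_2 (-0.12, edgeR adjusted p = 0.154). These counts describe the families and were not tested as sets.

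The share of each isodecoder within its anticodon was tested next, in a fit in which each anticodon's total count served as the offset, so that library scaling drops out. Of 169 transcripts in 42 anticodons, 73 changed their share (43.2%), 47 upwards (27.8%) and 26 downwards (15.4%). The summed shift in shares between the lines exceeded that between the passages of either line in 34 of 42 anticodons. Its median was 3.74 percentage points, against 0.768 between the Ctrl_1 passages and 0.805 between the Cl_2 passages. Shifts of this size were not particular to the comparison with Ctrl_1. Between Cl_1 and Cl_3 the median was 4.09 points, again above both passage pairs in 34 of 42 anticodons. In 22 anticodons at least 1 share rose and 1 fell, and in 16 the level of at least 1 transcript rose and that of another fell. Shares of the same anticodon are not independent, because a rise of 1 member entails a fall elsewhere in that anticodon. The count of 22 is therefore no separate evidence, and the 73 calls are not 73 separate changes. Of the 73 calls, 47 held in each of the 4 fits that left out a library. How reads shared by near-identical isodecoders were assigned is not given in the sources used here, and what part this has in the shifts was not tested.

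The largest shift was in Arg-CCG, at 18.1 points. tRNA-Arg-CCG-3 held 43.8% and 44.5% of this anticodon in Ctrl_1 and 64.4% and 60.2% in Cl_2, a change in share of 0.50 on the log2 scale (edgeR adjusted p = 0.000181, SE 0.03). tRNA-Arg-CCG-2 held 40.2% and 40.3% and 25.0% and 28.5%, a change in share of -0.59 on the log2 scale (edgeR adjusted p = 0.000803, SE 0.06). Both Cl_2 libraries lay above the Ctrl_1 range for the first and below it for the second. In Thr-CGT (12.4 points) the share of tRNA-Thr-CGT-1 went from 58.5% and 56.6% in Ctrl_1 to 45.4% and 44.9% in Cl_2, a change of -0.35 on the log2 scale (edgeR adjusted p = 0.000543, SE 0.03). The other 3 members rose in share, the rarest, tRNA-Thr-CGT-4, from 1.29% and 1.66% to 3.87% and 4.27%. In Gly-CCC (9.60 points) tRNA-Gly-CCC-1 held 96.7% and 96.3% in Ctrl_1 and 87.5% and 86.2% in Cl_2. The choice of these 3 anticodons was made from their values.

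Of the anticodons with a rising and a falling level, the 6 with the most counts were Lys-TTT, Ala-AGC, Gln-CTG, Arg-ACG, Ser-GCT and Met-CAT. In Lys-TTT, tRNA-Lys-TTT-1 fell as above while tRNA-Lys-TTT-2 was at 1328 and 1116 CPM in Ctrl_1 and 2721 and 2940.0 CPM in Cl_2, a change in level of 1.21 on the log2 scale (edgeR adjusted p = 0.000805, SE 0.14). Its share went from 1.77% and 1.62% in Ctrl_1 to 5.69% and 6.40% in Cl_2. It remained a minor member in every library. The levels of the other 3 members (tRNA-Lys-TTT-3, 0.82; tRNA-Lys-TTT-5, -0.43; tRNA-Lys-TTT-7, -0.13) did not pass.

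In Ser-GCT the passages agreed closely and the lines did not. tRNA-Ser-GCT-2 held 28.8% and 28.8% in Ctrl_1 and 17.4% and 17.5% in Cl_2, a change in share of -0.72 on the log2 scale (edgeR adjusted p = 4.25e-05, SE 0.03). The main row, tRNA-Ser-GCT-3/4, which joins a pair of transcripts in the table, held 69.8% and 69.7% and 80.2% and 80.1%, a change in share of 0.20 on the log2 scale (edgeR adjusted p = 1.93e-05, SE 0.01). Its level did not pass (0.23, edgeR adjusted p = 0.0531). Minor members that rose in level were tRNA-Ser-GCT-1, by 0.76 and tRNA-Ser-GCT-5, by 0.99 on the log2 scale, and the rarest, tRNA-Ser-GCT-6, did not pass. In Met-CAT, the elongator methionine tRNA, tRNA-Met-CAT-2 held 42.9% and 42.6% in Ctrl_1 and 32.9% and 33.8% in Cl_2, a change in share of -0.36 on the log2 scale (edgeR adjusted p = 0.000381, SE 0.03). tRNA-Met-CAT-1 and tRNA-Met-CAT-3 rose in level (0.26 and 0.57, kept in 2 and in 4 of the 4 fits that left out a library), and tRNA-Met-CAT-4, tRNA-Met-CAT-5 and tRNA-Met-CAT-6 did not pass (0.29, -0.15 and -0.67).

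In Gln-CTG, tRNA-Gln-CTG-1 was at 321 and 301 CPM in Ctrl_1 and 711 and 728 CPM in Cl_2, a change in level of 1.21 on the log2 scale (edgeR adjusted p = 0.00212, SE 0.18). tRNA-Gln-CTG-3 rose by 0.27 on the log2 scale, a call kept in 0 of the 4 fits that left out a library, while the main member tRNA-Gln-CTG-2 and the rare tRNA-Gln-CTG-6 and tRNA-Gln-CTG-7 did not pass (-0.40 and -0.27 for the rare pair). In Arg-ACG the abundant tRNA-Arg-ACG-1 and tRNA-Arg-ACG-3 fell (-0.35 and -0.40) and the minor tRNA-Arg-ACG-2 rose (0.28). The rise in level was lost in all 4 fits that left out a library, and the fall of tRNA-Arg-ACG-3 in 2 of them. The rise in the share of tRNA-Arg-ACG-2 was kept in all 4, the share going from 3.79% and 4.31% to 6.02% and 6.42%. In Ala-AGC no share passed. Its shift of 9.27 points between the lines was smaller than the 19.1 points between the Ctrl_1 passages and the 20.3 between the Cl_2 passages. At both passage numbers 8 of 9 shares moved the same way between the lines. These shares are not independent, and tRNA-Ala-AGC-10 barely moved (2.94% and 4.20% in Ctrl_1, 2.99% and 4.21% in Cl_2). With the replicate number as a block 3 of the 9 passed, beside 91 of 169 shares over all anticodons, so they do not stand out. By level tRNA-Ala-AGC-1, tRNA-Ala-AGC-3 and tRNA-Ala-AGC-7 rose (0.73, 0.31 and 0.46) and tRNA-Ala-AGC-2 and tRNA-Ala-AGC-6 fell (-0.26 and -0.37). Of these 5 calls tRNA-Ala-AGC-7 was kept in all 4 fits that left out a library, tRNA-Ala-AGC-2 in 2, and tRNA-Ala-AGC-1, tRNA-Ala-AGC-3 and tRNA-Ala-AGC-6 in 0. The main member tRNA-Ala-AGC-4 was at 24351 and 11057 CPM in Ctrl_1 and 20129.8 and 8989.7 CPM in Cl_2, with passages further apart than lines, and tRNA-Ala-AGC-5, tRNA-Ala-AGC-10 and tRNA-Ala-AGC-12 did not pass either (0.09, -0.07 and 0.15).

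**Figure D3:**
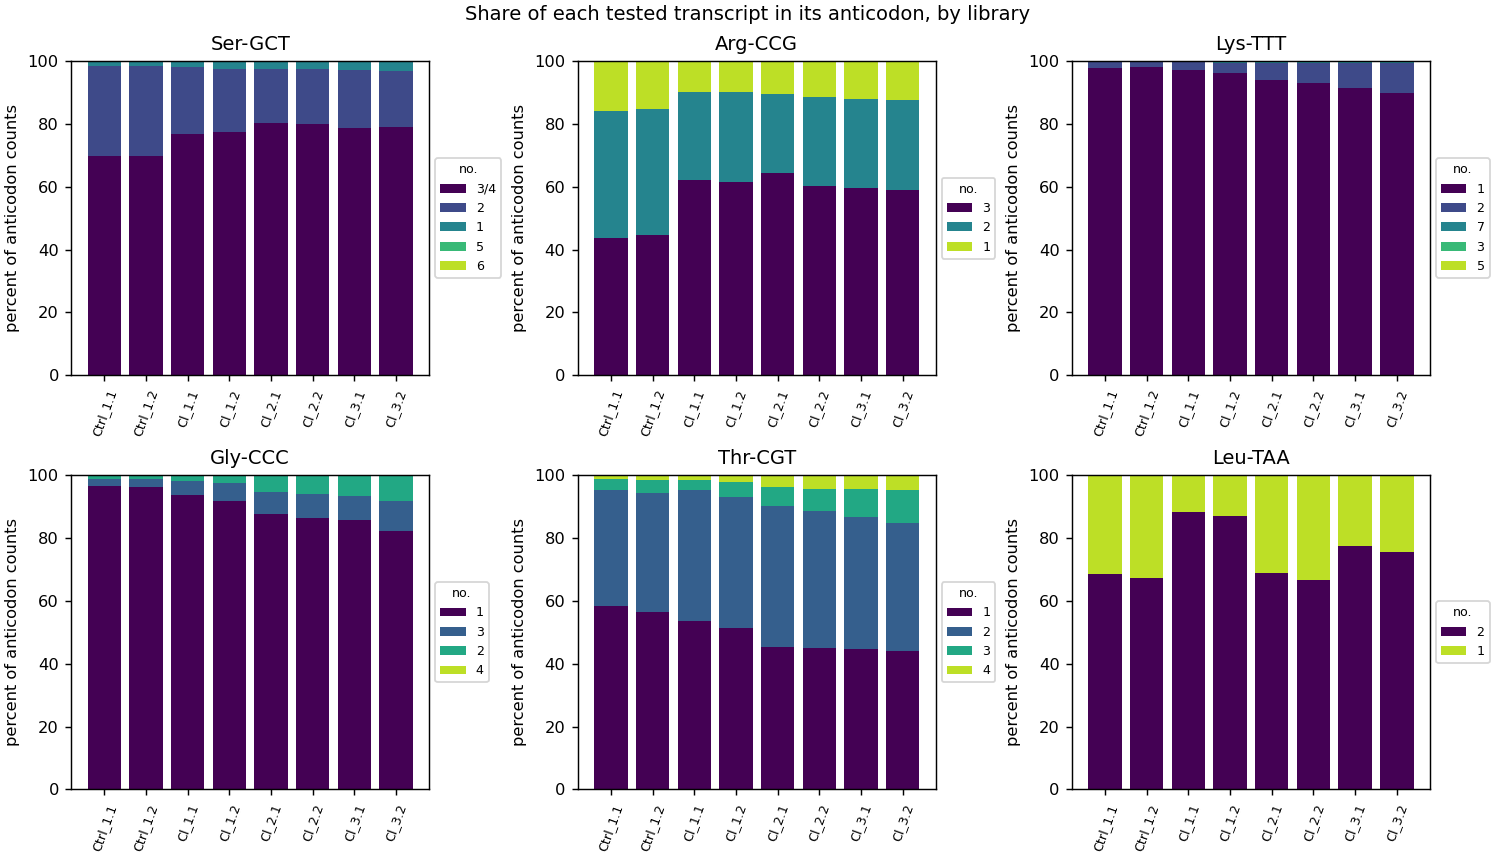
Stacked bars give, for each of the 8 MEF libraries (line and passage on the x axis), the percent of an anticodon's counts in each tested transcript, numbered in the key, for 6 anticodons. In 5 of them the Cl_2 bars differ from the Ctrl_1 bars, and in Leu-TAA they are close to Ctrl_1 and differ from Cl_1 and Cl_3.

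Counts summed per anticodon, which describe the supply of tRNA for a codon family whatever the isodecoder, changed in 24 of 74 totals (32.4%), 12 upwards (16.2%) and 12 downwards (16.2%). The totals were scaled by TMM factors of their own. Their CPM and changes are therefore not on the scale of the transcripts above, and a total can print below the level of its own member. From the same counts, mt-tRNA-Phe gave -1.20 among transcripts and -1.08 among totals, a difference of scaling only. Of the fallers 6 were nuclear and 6 mitochondrial, the latter from -1.08 for Phe through Met, Trp, Ile and Leu-TAA to -0.47 for His. Arg-CCG rose most, from 13039 and 12392 CPM in Ctrl_1 to 19678 and 16917 CPM in Cl_2, a change of 0.53 on the log2 scale (edgeR adjusted p = 0.00105, SE 0.07). Trp-CCA was at 17779 and 16654 CPM in Ctrl_1 and 24436 and 24995 CPM in Cl_2, a change of 0.52 on the log2 scale (edgeR adjusted p = 0.000415, SE 0.06). Ser-CGA was at 6848 and 6719 CPM in Ctrl_1 and 10165 and 9311 CPM in Cl_2, a change of 0.52 on the log2 scale (edgeR adjusted p = 0.000415, SE 0.06). In all 3 both Cl_2 libraries exceeded both Ctrl_1 libraries, and the calls held with each library left out. The other 9 that rose changed by 0.20 to 0.30: Leu-CAA, Thr-CGT, Val-AAC, Leu-TAG, Arg-CCT, Arg-TCG, Pro-CGG, Thr-AGT and Met-CAT. Unlike the first 3, these calls did not hold in every fit that left out a library.

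The nuclear totals that fell were led by His-GTG, the anticodon for histidine, at 24881 and 24332 CPM in Ctrl_1 and 17623 and 15692 CPM in Cl_2, a change of -0.56 on the log2 scale (edgeR adjusted p = 0.000415, SE 0.07). Lys-TTT was at 69619 and 64946 CPM in Ctrl_1 and 49052 and 46299 CPM in Cl_2, a change of -0.50 on the log2 scale (edgeR adjusted p = 0.0179, SE 0.12). The Lys-TTT call was kept in 2 of the 4 fits that left out a library. Lys-CTT, the other lysine anticodon, gave -0.00389 with an edgeR adjusted p of 0.976. Whether the lysine totals differ from each other was not tested. The remaining nuclear falls were Ser-TGA (-0.35), Pro-AGG (-0.29), Leu-TAA (-0.29) and Val-TAC (-0.27). For serine, Ser-CGA rose and Ser-TGA fell, for proline Pro-CGG rose and Pro-AGG fell, for valine Val-AAC rose and Val-TAC fell, and for leucine Leu-CAA and Leu-TAG rose and Leu-TAA fell. Apart from Ser-CGA, the rises in these pairs were not called in every fit that left out a library. The falls of Pro-AGG, Val-TAC and Leu-TAA were, and that of Ser-TGA was not.

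Grouped by the first anticodon base, which pairs with the third codon base, totals with C there gave 8 higher and 0 lower of 16. Those with A gave 2 and 1 of 8, those with G 0 and 1 of 9, and those with T 2 and 4 of 15. This grouping was chosen after the values were seen and was not tested. It and the directions above rest on scaling, as the next values show. With the scaling factors of the transcript fit, the 24 calls became 25, of which 3 were higher (Arg-CCG, Ser-CGA and Trp-CCA) and 22 lower, and totals with C first gave 3 and 3. Without the second Cl_2 library 8 totals passed, and without the first Ctrl_1 library 11. mt-tRNA-Ala in the fit of totals gave -0.88 on the log2 scale (edgeR adjusted p = 0.0529, SE 0.30) and did not pass there.

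**Figure D4:**
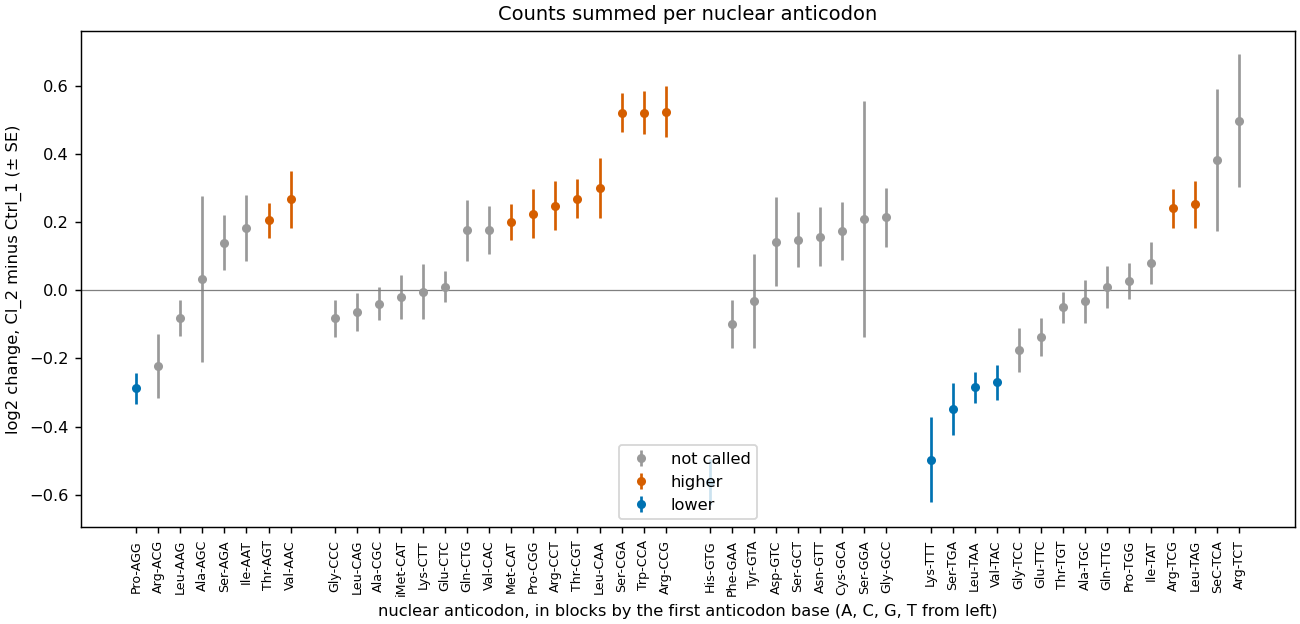
Points give the log2 change, Cl_2 minus Ctrl_1, of the summed counts of each of the 48 nuclear anticodons, with bars for the SE, in blocks by first anticodon base and coloured by the edgeR call. Arg-CCG, Trp-CCA and Ser-CGA lie above 0.5, and His-GTG and Lys-TTT are the lowest of all.

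What set Cl_2 apart from the other Cl lines was asked with the contrast of Cl_2 and the mean of Cl_1 and Cl_3, which leaves out the Ctrl_1 level. Of 201 transcripts 12 differed (5.97%), 11 higher in Cl_2 (5.47%) and 1 lower (0.498%). Between Cl_2 and Cl_1 alone 34 of 201 differed (16.9%), 28 higher in Cl_2 (13.9%) and 6 lower (2.99%), and between Cl_2 and Cl_3 2 (0.995%), which were tRNA-Gln-TTG-1 and tRNA-Leu-TAA-2, with 33 at an unadjusted p under 0.05. The number of calls against the mean of both lines depended on the settings. With a library left out 2 to 11 passed, with DESeq2 19 passed, and with nuclear tRNA totals 3. tRNA-Leu-TAA-1 and tRNA-Ala-TGC-6 passed in all 14 alternatives run, and the other 10 did not.

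mt-tRNA-Ala was the only one of the 22 mitochondrial tRNAs to differ. It was at 588 and 456 CPM in Ctrl_1, 234 and 287 CPM in Cl_2, 125 and 160.2 CPM in Cl_1 and 127 and 104 CPM in Cl_3. Both Cl_2 libraries lay between those of Ctrl_1 and those of Cl_1 and Cl_3. Cl_2 exceeded the mean of Cl_1 and Cl_3 by 1.02 on the log2 scale (edgeR adjusted p = 0.0253, SE 0.18), or 2.03-fold. Against each line alone the difference was 0.87 for Cl_1 (edgeR adjusted p = 0.0338) and 1.17 for Cl_3 (edgeR adjusted p = 0.0551). The share of mitochondrial counts, 0.975% and 1.10% in Cl_2, compares with 0.568% and 0.538% in Cl_1 and 0.546% and 0.422% in Cl_3. With mitochondrial totals for scaling the difference was 1.01 (edgeR adjusted p = 0.000107). With nuclear totals its edgeR adjusted p was 0.0513, and in 5 of the 6 fits without a library it did not pass, with changes of 0.87 to 1.18. The other 21 mitochondrial tRNAs had a median difference of 0.02 from Cl_1 and Cl_3.

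The smallest edgeR adjusted p in the contrast with the mean of Cl_1 and Cl_3 was that of tRNA-Leu-TAA-1, with Cl_1 the line furthest from Cl_2. tRNA-Leu-TAA-1 was at 3579.6 and 3651 CPM in Ctrl_1, 2589.9 and 2874 CPM in Cl_2, 975 and 1046 CPM in Cl_1 and 2226 and 2354 CPM in Cl_3. It was higher in Cl_2 than in the mean of Cl_1 and Cl_3 by 0.84 on the log2 scale (edgeR adjusted p = 0.00119, SE 0.07) and differed from Ctrl_1 by -0.40 on the log2 scale (edgeR adjusted p = 0.00893, SE 0.09). Against Cl_3 alone the level of tRNA-Leu-TAA-1 did not pass (0.25, edgeR adjusted p = 0.193). tRNA-Leu-TAA-2 was at 7755 and 7526 CPM in Ctrl_1, 5769 and 5767 CPM in Cl_2, 7285 and 6999 CPM in Cl_1 and 7593 and 7326 CPM in Cl_3, with Cl_2 the lowest line. The difference of tRNA-Leu-TAA-2 from Cl_1 and Cl_3 was -0.34 on the log2 scale (edgeR adjusted p = 0.0155, SE 0.05), and it did not pass in 5 of the 6 fits without a library. As shares, tRNA-Leu-TAA-1 held 31.6% and 32.7% of Leu-TAA counts in Ctrl_1 and 31.0% and 33.3% in Cl_2, ranges that overlap. It held 11.8% and 13.0% in Cl_1 and 22.7% and 24.3% in Cl_3. The share in Cl_2 did not differ detectably from Ctrl_1 (-0.000240 in log2, SE 0.07, edgeR adjusted p = 0.997) and exceeded the mean of Cl_1 and Cl_3 by 0.91 on the log2 scale (edgeR adjusted p = 0.000683), a call that held in all 6 fits without a library. Both Leu-TAA transcripts fell together against Ctrl_1, so the total fell while its composition stayed within the spread of the passages.

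tRNA-Ala-TGC-6, a rare nuclear alanine isodecoder, was highest in Cl_2. It was at 45.1 and 39.6 CPM in Ctrl_1, 262 and 277 CPM in Cl_2, 81.6 and 71.9 CPM in Cl_1 and 157 and 169 CPM in Cl_3. No library of another line reached either Cl_2 library. Cl_2 exceeded Ctrl_1 by 2.67 on the log2 scale (edgeR adjusted p = 0.000107, SE 0.17), and the mean of Cl_1 and Cl_3 by 1.27 on the log2 scale (edgeR adjusted p = 0.00208, SE 0.13). The difference from Cl_3 alone, 0.73, had an edgeR adjusted p of 0.0606. Its share of Ala-TGC counts was 0.192% and 0.181% in Ctrl_1, 1.31% and 1.33% in Cl_2, 0.400% and 0.350% in Cl_1 and 0.862% and 0.849% in Cl_3.

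For several of the other calls Cl_2 lay beside Cl_3, and Cl_1 was the line that stood apart. tRNA-Ala-AGC-1 was at 333 and 294 CPM in Ctrl_1, 470.1 and 568 CPM in Cl_2, 95.5 and 130.5 CPM in Cl_1 and 545 and 791 CPM in Cl_3. tRNA-Phe-GAA-2, for phenylalanine, was at 329 and 308 CPM in Ctrl_1, 298 and 314 CPM in Cl_2, 95.5 and 96.0 CPM in Cl_1 and 218 and 352 CPM in Cl_3. In both, Cl_1 was far below the other 3 lines, and the same holds for tRNA-Ala-AGC-3 and tRNA-Ala-TGC-1. Their differences from the mean of Cl_1 and Cl_3 were 0.92, 0.89, 0.50 and 0.69 on the log2 scale. tRNA-Gln-TTG-1 was at 2228 and 2347 CPM in Ctrl_1, 2304 and 2177 CPM in Cl_2, 1989 and 1976 CPM in Cl_1 and 1619.7 and 1582 CPM in Cl_3, so that Cl_2 overlapped Ctrl_1 and lay above both other Cl lines. The last 3, tRNA-Thr-CGT-2 (0.24), tRNA-Thr-AGT-1/3 (0.22) and tRNA-Arg-CCT-2 (0.27), were higher in Cl_2 than in every library of the other lines. Over all transcripts, Cl_2 lay outside the range of the Cl_1 and Cl_3 libraries in 36 of 201 (17.9%).

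At the level of anticodon totals, 0 of 74 differed between Cl_2 and the mean of Cl_1 and Cl_3 in edgeR, with 10 at an unadjusted p under 0.05, and DESeq2 called 3. In the fit of shares 15 of 169 transcripts differed (8.88%), 10 higher (5.92%) and 5 lower (2.96%). Shares of the same anticodon are not independent. Those of tRNA-Leu-TAA-1 and tRNA-Leu-TAA-2, the only tested members of their anticodon, mirror each other and amount to a single shift. With only the Cl lines in the fit 3 passed, with the passage number as a block 36, and with a library left out 3 to 23, the most without the second Cl_1 library. Of the 15, 3 held in each fit that left out a library: tRNA-Leu-TAA-1, tRNA-Leu-TAA-2 and tRNA-Ala-TGC-6. The median shift per anticodon was 1.69 points between Cl_2 and Cl_3 and 3.47 between Cl_2 and Cl_1, beside the 3.74 between Cl_2 and Ctrl_1. Between Cl_1 and Cl_3 it was 4.09 points, and from Ctrl_1 it was 3.11 for Cl_1 and 4.41 for Cl_3.

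**Figure D5:**
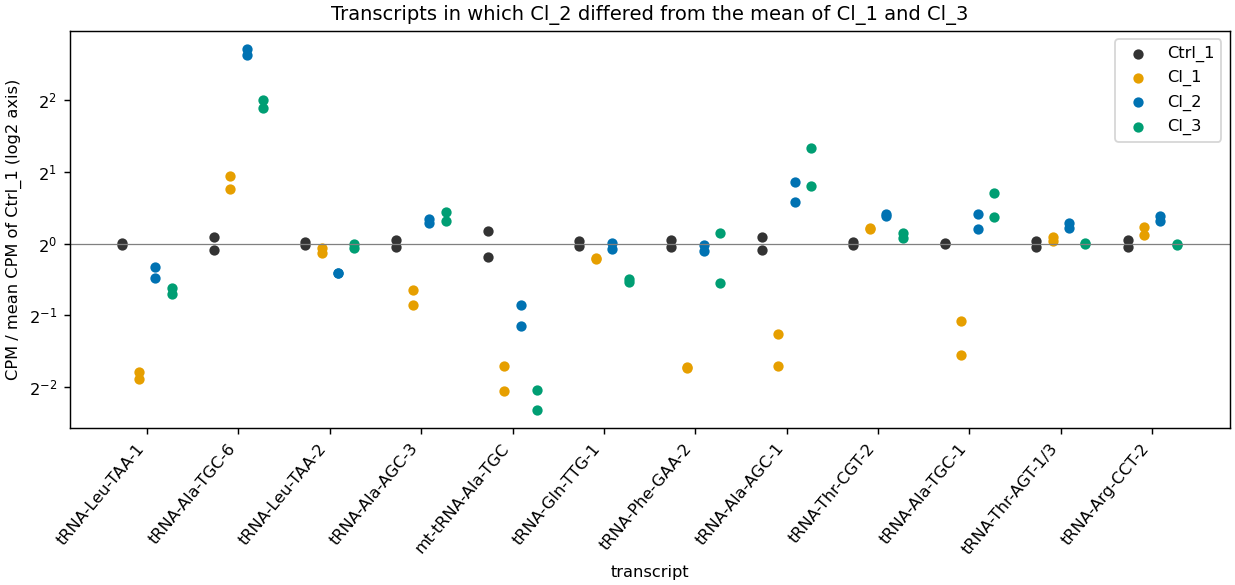
Points are libraries of the 4 lines, as CPM over the Ctrl_1 mean CPM on a log2 axis, for the 12 transcripts that differed between Cl_2 and the mean of Cl_1 and Cl_3, in order of p. Cl_2 is the highest line for tRNA-Ala-TGC-6 and the lowest for tRNA-Leu-TAA-2, and lies between Ctrl_1 and the other Cl lines for mt-tRNA-Ala.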

How the data were processed

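tRNA abundance was measured by mim-tRNAseq on an Illumina NextSeq 500 in 16 libraries, of which the 8 MEF libraries were used (2 passages each of Ctrl_1, Cl_1, Cl_2 and Cl_3, grouped by sample title). The authors deposited raw counts per tRNA transcript in a single MEF table, whole numbers that were not normalized. The tool cutadapt 3.5 and the build mm39 are named per the submitters' processing notes. Which aligner and counter were run, and how reads that fit several near-identical tRNAs were counted, is not given in the sources used here. No coordinates are printed, and the order of mitochondrial genes came from a RefSeq table of another build.

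The test was edgeR 4.0.16 under R 4.3.3 (TMM, filterByExpr by line with a minimum count of 10 and a minimum total of 15, glmQLFit and glmQLFTest). The line was the factor of a single fit to the 8 MEF libraries, with Benjamini-Hochberg adjustment over the features tested at 0.05. The SE is the log2 change divided by the square root of F. The same fit was run on counts summed per anticodon, and on the nuclear anticodons with at least 2 tested transcripts with the anticodon's total as offset. Chi-square per degree of freedom between passages was 204 in Ctrl_1 and 94.1 in Cl_2, so neither pair was a copy. Alternatives were other scalings, no filter, DESeq2 1.42.0, the replicate number as a block, fewer lines in the fit and leaving out each library. Thinning to the shallowest library, the scaling of totals by transcript factors and the alternatives of the share comparison with Cl_1 and Cl_3 were added after the data were seen.

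Data were simulated with a minority of features changed, in both directions, and each feature drawn independently of the others. In the real contrast with Ctrl_1, 46.3% of transcripts were called and mitochondrial tRNAs had a median change of -0.62. The simulated rates need not hold for it. On simulated data, recovery was 85.8% at 2-fold and 96.2% at 4-fold for the 201 transcripts of Cl_2 against Ctrl_1, with 4.21% of calls false. For the 74 anticodon totals the values were 88.1%, 98.8% and 3.86%, and for Cl_2 against Cl_1 and Cl_3 88.5%, 98.0% and 4.24%. For the fit of shares only minor members were changed, never several of the same anticodon. There 79.4% of 4-fold changes were recovered, and 0.432% of transcripts in unchanged anticodons were called. Changes in main members, and unchanged members of a changed anticodon, were not assessed. Named were every mitochondrial tRNA, up to 8 nuclear transcripts each way with the smallest adjusted p, up to 5 each way with the largest called change, the 5 with the highest counts, every called anticodon total, members of up to 6 anticodons with opposite changes, up to 8 transcripts each way against Cl_1 and Cl_3, and nuclear tRNA-Ala. tRNA-Leu-TAA-1 against Ctrl_1, tRNA-Gly-CCC-1, tRNA-Cys-GCA-3, tRNA-Cys-GCA-7, tRNA-Trp-CCA-3/4, tRNA-iMet-CAT-1 and tRNA-Leu-TAG-2 were named after their values were seen. The comparison and its lists were chosen with earlier results of these data known.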

Additional observations from a re-analysis of the deposited data

Results flagged for a closer look

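The 12 transcripts in which Cl_2 differed from the mean of Cl_1 and Cl_3 are listed here because lines compared with the same control gave different changes by a direct test (edgeR, adjusted p under 0.05). The differences, Cl_2 minus the mean of Cl_1 and Cl_3 on the log2 scale, were 0.84 for tRNA-Leu-TAA-1, 1.27 for tRNA-Ala-TGC-6, -0.34 for tRNA-Leu-TAA-2, 0.50 for tRNA-Ala-AGC-3 and 1.02 for mt-tRNA-Ala. They were 0.33 for tRNA-Gln-TTG-1, 0.89 for tRNA-Phe-GAA-2, 0.92 for tRNA-Ala-AGC-1, 0.24 for tRNA-Thr-CGT-2, 0.69 for tRNA-Ala-TGC-1, 0.22 for tRNA-Thr-AGT-1/3 and 0.27 for tRNA-Arg-CCT-2. The last 7 had the same edgeR adjusted p, 0.0474. tRNA-Leu-TAA-1 and tRNA-Ala-TGC-6 passed under each of the 14 alternatives run for them. All of these kept the contrast with the mean of Cl_1 and Cl_3, and against Cl_3 alone neither transcript passed. Groups of 2 libraries are too small for a search for single outlying libraries.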

How the results depend on the processing

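Each side was 2 passages of 1 line. With a library left out, transcripts called against Ctrl_1 numbered 53 to 66, anticodon totals 8 to 24, isodecoder shares 51 to 60 and mitochondrial tRNAs 4 to 9. For mt-tRNA-Ala the change against Ctrl_1 ranged from -1.16 to -0.82. Against the mean of Cl_1 and Cl_3, 2 to 11 transcripts and 3 to 23 shares were called and mt-tRNA-Ala ranged from 0.87 to 1.18. The second Cl_2 library, at 1473330 counts, limits the rare transcripts.

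Against Cl_1 and Cl_3 the 12 transcripts became 5 with DESeq2 size factors, 6 with library totals, 3 with nuclear totals, 19 with DESeq2, 5 with only the Cl lines fitted and 6 after thinning. The 15 shares became 3 with only the Cl lines fitted. For anticodon totals 2 passed with no filter and 3 with DESeq2, and 0 under the other alternatives run. Mitochondrial calls became 7 with library totals, 7 with nuclear totals and 6 with mitochondrial totals (5 higher, 1 lower). With mitochondrial totals 97.2% of the calls over all transcripts were higher. mt-tRNA-Ala was no longer called against Ctrl_1 with mitochondrial totals (-0.42), nor against Cl_1 and Cl_3 with nuclear totals (1.03, edgeR adjusted p = 0.0513). The cause of these shifts was not tested.

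mt-tRNA-Tyr, called against Ctrl_1, turned sign under mitochondrial totals (0.31). The other estimates that turned had not passed. Under mitochondrial totals they were mt-tRNA-Cys (0.42), mt-tRNA-Lys (0.25), mt-tRNA-Pro (0.41) and mt-tRNA-Ser-TGA (0.45). Under library and nuclear totals they were tRNA-Ala-AGC-10 (0.035 and 0.020), tRNA-Gln-CTG-2 (0.064 and 0.049), tRNA-Ser-GCT-6 (0.087 and 0.072), tRNA-Cys-GCA-3 (0.099 and 0.084) and tRNA-Cys-GCA-7 (0.081 and 0.066). With no filter tRNA-Ser-GCT-6 gave 0.0032 and tRNA-Cys-GCA-3 0.0041, and after thinning tRNA-Cys-GCA-3 gave 0.020 and tRNA-Lys-TTT-5 0.042. Without 1 library the ranges that crossed 0 were -0.38 to 0.040 for mt-tRNA-Cys, -0.094 to 0.46 for mt-tRNA-Gln, -0.023 to 0.96 for mt-tRNA-Glu, -0.73 to 0.15 for mt-tRNA-Lys and -0.48 to 0.12 for mt-tRNA-Pro. They were -0.51 to 0.45 for tRNA-Ala-AGC-12, -0.96 to 0.38 for tRNA-Ala-AGC-4, -0.80 to 1.05 for tRNA-Ala-AGC-5, -0.073 to 0.0037 for tRNA-Gln-CTG-2, -0.50 to 0.21 for tRNA-Met-CAT-5 and -0.59 to 0.24 for tRNA-Ser-GCT-6. For tRNA-Cys-GCA-3 the range was -0.10 to 0.097 and for tRNA-Cys-GCA-7 -0.075 to 0.039. Of 167 single values, 69 kept their direction and call under every alternative run.

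The titles link passages of different lines by a replicate number only, and do not say whether passages of the same number were handled together. Their second-minus-first differences correlated at 0.25 between Ctrl_1 and Cl_2 and at 0.07 to 0.25 over the pairs of lines, across 201 transcripts that are not independent. With the replicate number as a block 92 transcripts passed against Ctrl_1, 25 anticodon totals, 91 shares and 12 mitochondrial tRNAs, and against Cl_1 and Cl_3 15 transcripts, 0 totals and 36 shares. mt-tRNA-Ala was -1.0 and 1.02 with the block. In Ala-AGC, 8 of 9 shares moved the same way between Ctrl_1 and Cl_2 at both passage numbers. With the block 3 of them passed, tRNA-Ala-AGC-1 (0.80), tRNA-Ala-AGC-3 (0.40) and tRNA-Ala-AGC-7 (0.54), against 0 without it. Over all anticodons 91 of 169 shares passed with the block.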

Other observations

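The 4 tRX entries that passed the filter had few counts. tRX-Gly-GCC-5 was at 14.1 and 10.2 CPM in Ctrl_1 and 14.0 and 4.6 CPM in Cl_2, and the other 3 lay between 1.31 and 4.25 CPM in these libraries. All tRX entries together held 152 and 170 counts in the Ctrl_1 libraries and 152 and 57 in the Cl_2 libraries.

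tRNA-Ala-AGC-4 and tRNA-Ala-AGC-5, both nuclear alanine isodecoders, differed between passages more than between lines in Ctrl_1, Cl_2 and Cl_3. tRNA-Ala-AGC-4 was at 24351 CPM in the first and 11057 CPM in the second passage of Ctrl_1, at 20129.8 and 8989.7 CPM in Cl_2 and at 19116 and 8039.6 CPM in Cl_3. In Cl_1 it was at 24309.5 and 20079 CPM. tRNA-Ala-AGC-5 was at 4781 and 1635 CPM in Ctrl_1, 5012 and 1825 CPM in Cl_2, 2981 and 3129 CPM in Cl_1 and 6391 and 2197 CPM in Cl_3. For tRNA-Ala-AGC-4 the second passage was the lower in all 4 lines, and for tRNA-Ala-AGC-5 in all but Cl_1. Nuclear alanine tRNAs as a whole held 8.56% and 6.89% of counts in Ctrl_1 and 8.23% and 7.06% in Cl_2.

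tRNA-Glu-CTC-2 had the lowest log2 change of any uncalled nuclear transcript, -1.87 on the log2 scale (edgeR adjusted p = 0.0834, SE 0.76). It was at 377 and 53.2 CPM in Ctrl_1 and at 64.0 and 51.9 CPM in Cl_2. The first Ctrl_1 library alone stood apart.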
